A study of Homo sapiens with 6 samples.

Results

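A-kinase anchoring proteins (AKAPs) are scaffolds that hold protein kinase A (PKA), the main kinase switched on by cyclic AMP (cAMP), at set places in the cell, often beside phosphatases, phosphodiesterases and ion channels. RAPGEF3, also called EPAC1, is the other branch of the same signal: it binds cAMP directly and loads GTP onto the small GTPase Rap. In neurons AKAP5 is best known at the postsynaptic membrane, where it brings PKA, protein kinase C and the phosphatase calcineurin to glutamate receptors and calcium channels.

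The genes described here are 10 of the 50883 genes in the deposited count table: AKAP1, AKAP5, AKAP6, AKAP7, AKAP8, AKAP9, AKAP11, AKAP12, AKAP13 and RAPGEF3. They were chosen by symbol, and for the lower counts of AKAP5 and RAPGEF3 in the knockout libraries. Their differences between the groups are therefore given as a description, with no p-value for any of the 10. RNA came from D283, an established human line of medulloblastoma, the malignant cerebellar tumour of childhood. Cells of the control group received a non-targeting guide RNA, and cells of the OTX2 knockout group a guide RNA against OTX2, a homeodomain protein that regulates transcription in the embryonic brain and the retina. In both groups the guide was delivered by a GFP-expressing lentivirus, there were 3 infections per group, and cells were collected after 7 days of culture. All 6 libraries come from 1 cell line, and neither the nuclease nor the fraction of cells edited is stated in the sources used here.

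Library totals ran from 54540645 to 62166870 counts, so that 3 counts correspond to 0.0471 to 0.0563 CPM (edgeR's counts-per-million unit, here on TMM-scaled library sizes). OTX2 itself was at 1002, 979 and 909 CPM in the control libraries and at 765, 824 and 887 CPM in the knockout libraries, and an edit can leave the RNA in place, so this is a weak check of the labels. All 7 Group 3 medulloblastoma markers examined (OTX2, MYC, NPR3, IMPG2, GABRA5, CRX and NRL) were expressed and were lower in the knockout libraries. All 7 passed an adjusted p under 0.05 (edgeR quasi-likelihood test), where 18.5% of all tested genes were lower at that threshold. OTX2 is the targeted gene, and the NRL count is uncertain because its exons overlap those of DCAF11. Immune markers summed to 0.994 to 1.08 CPM in control and 0.537 to 0.581 CPM in knockout, with CD3E at 0 in all libraries. Endothelial markers summed to 2.53 to 3.88 and 5.45 to 6.47 CPM, and fibroblast markers to 18.8 to 20.2 and 24.5 to 25.2 CPM, and their part in the results below was not tested. Control replicate 1 stood apart, with 0.764% of its counts from mitochondrially encoded genes against 0.440% and 0.449% in the other controls. The knockout libraries lay between these values, at 0.531% to 0.6015%. Ribosomal RNA genes held 0.305% of the counts of control replicate 1, against 0.0679% and 0.0975% in the other controls. They held 0.0945% to 0.111% in the knockout libraries.

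The RefSeq promoter windows of the members that differed most between the groups are shown here, because a transcription factor was targeted and these genes moved in opposite directions. Each is the sequence before a RefSeq start on GRCh38 patch 14, read 5′ to 3′ on the gene's strand. Capitals mark TGACG, the short core of the cAMP response element, on either strand.
AKAP5 (lower in knockout, chr14:64465249-64465498, plus strand): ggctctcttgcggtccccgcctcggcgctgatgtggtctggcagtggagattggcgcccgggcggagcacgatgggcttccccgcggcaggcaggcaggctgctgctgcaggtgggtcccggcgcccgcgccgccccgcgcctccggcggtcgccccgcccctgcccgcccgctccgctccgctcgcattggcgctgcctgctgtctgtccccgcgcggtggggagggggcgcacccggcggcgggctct
RAPGEF3 (lower in knockout, chr12:47758881-47758993, minus strand): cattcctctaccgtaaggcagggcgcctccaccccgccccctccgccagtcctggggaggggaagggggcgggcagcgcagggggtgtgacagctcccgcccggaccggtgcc
AKAP12 (higher in knockout, chr6:151239717-151239966, plus strand): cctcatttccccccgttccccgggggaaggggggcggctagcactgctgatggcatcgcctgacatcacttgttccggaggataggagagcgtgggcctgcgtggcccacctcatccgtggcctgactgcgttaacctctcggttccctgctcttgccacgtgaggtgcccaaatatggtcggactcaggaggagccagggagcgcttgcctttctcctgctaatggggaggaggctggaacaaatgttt
AKAP7 (higher in knockout, chr6:131135217-131135466, plus strand): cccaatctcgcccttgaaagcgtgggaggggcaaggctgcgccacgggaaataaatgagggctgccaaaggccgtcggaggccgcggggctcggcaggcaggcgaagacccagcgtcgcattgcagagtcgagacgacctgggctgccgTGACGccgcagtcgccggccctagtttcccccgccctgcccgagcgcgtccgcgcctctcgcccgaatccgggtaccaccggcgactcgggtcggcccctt

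All 10 members had at least 1 RefSeq window, 19 in all, and each was searched over its 250 bases before the start on both strands. TAATCC, the core recognised by OTX2 and its relative CRX, was in 0 of the 19 windows, where 5.62% of all 35116 promoter windows of that length hold it. TGACGTCA, the full cAMP response element, was also in 0 of them, against 1.65% of all windows. TGACG, which lies inside the full element, was in the windows of 4 of the 10 members, AKAP1, AKAP7, AKAP8 and AKAP9, against 24.9% of all genes with a window. It stood in 6 of the 19 windows, against 21.2% of all windows, but AKAP1 has overlapping windows that share 1 of these matches. The AKAP5 window was 78.8% G and C, above 95.4% of all windows, whose median was 58%. The RAPGEF3 window farthest upstream had 137 bases covered by exons of SLC48A1, a heme transporter gene on the opposite strand, and only the 113 bases nearest the start, which no annotated exon covers, are printed. RAPGEF3 and AKAP12 each have 3 RefSeq windows and AKAP7 has 2, of which 1 each is printed, and which start was used in D283 was not measured here. For these 3 genes the bases just after the printed start were not found in a GENCODE transcript of the gene. Those after another start of each gene were found, as were those after the AKAP5 start.

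AKAP5 had the most negative log2 fold change of the 9 anchoring members. It held 197, 194 and 185 CPM in the control libraries and 59.3, 70.1 and 70.3 CPM in the knockout libraries. Every knockout library was below every control library, but AKAP5 was chosen for its lower counts in knockout. The CPM ranges of the groups were also apart for 49.2% of all tested genes. The means were 192 ± 6.51 and 66.6 ± 6.27 CPM (SD, n = 3 per group), which is a fitted log2 fold change of -1.53 (SE 0.06). Of the 18420 genes tested, 30 had a lower log2 fold change. AKAP5 lies on the plus strand of chromosome 14, at chr14:64465499-64474503 (GRCh38, GENCODE release 29), and no other annotated exon overlaps it. In these bulk libraries, fewer cells with AKAP5 RNA and less AKAP5 RNA per cell cannot be told apart.

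RAPGEF3, the cAMP-activated exchange factor for Rap, was at 11.2, 12.1 and 9.66 CPM in the control libraries and at 2.73, 3.40 and 3.25 CPM in the knockout libraries. The groups did not overlap here either, at a level far below that of AKAP5. The means were 11.0 ± 1.23 and 3.13 ± 0.349 CPM (SD, n = 3 per group). The fitted log2 fold change was -1.81 (SE 0.10), with 13 tested genes below it. RAPGEF3 is annotated on the minus strand of chromosome 12, at chr12:47734367-47771040. Its exons share 83 bases, 0.69% of their combined length of 12078 bases, with SLC48A1 on the opposite strand. They also share 1836 bases with an antisense gene, AC004241.1, a symbol for which no count was used here. Because strand-specific counting is not stated, the RAPGEF3 count is uncertain.

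SLC48A1 held 6194 counts over the 6 libraries beside 2439 for RAPGEF3, and it moved the same way. Its level fell from 22.1 ± 1.30 to 13.1 ± 1.07 CPM (log2 fold change -0.76, SE 0.07; adjusted p = 5.26e-07, edgeR quasi-likelihood test, Benjamini-Hochberg adjustment). The ratio of RAPGEF3 to SLC48A1 counts inside a library, which needs no scaling, was 0.525, 0.512 and 0.451 in control and 0.220, 0.237 and 0.258 in knockout. The ratio did not overlap between the groups, but it restates the larger fall for which RAPGEF3 was chosen. How many RAPGEF3 counts came from overlapping genes was not tested. RAPGEF4 (EPAC2), the other cAMP-activated exchange factor for Rap and named after its values were seen, was at 5.77 ± 0.536 and 5.50 ± 0.525 CPM (adjusted p = 0.627, edgeR quasi-likelihood test). There were 0.534 ± 0.113 RAPGEF4 counts per RAPGEF3 count in control and 1.77 ± 0.233 in knockout. That ratio also restates the fall for which RAPGEF3 was chosen, and its counts were not divided by gene length.

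AKAP12 and AKAP7 were the members called higher in the knockout libraries. AKAP12, or gravin, is a large scaffold under the plasma membrane that binds PKA and protein kinase C. It was at 22.9, 22.1 and 22.6 CPM in control and at 54.4, 53.5 and 48.4 CPM in knockout. The control libraries lay within 1 CPM of each other, and all 3 knockout libraries were more than 2-fold above them. The log2 fold change of AKAP12 was 1.21 (SE 0.06), at chr6:151239999-151358557 on the plus strand. AKAP7, a small membrane-bound anchor linked to ion channels, was close to the lower end of detection, with 14, 14 and 16 counts in control and 42, 45 and 44 in knockout. Those counts correspond to 0.263 ± 0.0328 and 0.694 ± 0.0341 CPM and a log2 fold change of 1.40 (SE 0.24), and the groups did not overlap. Its gene is also on the plus strand of chromosome 6, at chr6:131135666-131283535.

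AKAP13 and AKAP9, the most abundant members in CPM, were slightly lower in the knockout libraries. AKAP13, or AKAP-Lbc, is an anchor that is also a guanine nucleotide exchange factor, and it was at 362, 350.5 and 339 CPM in control and 298, 292 and 306 CPM in knockout. Its groups did not overlap, and its log2 fold change was -0.23 (SE 0.05). AKAP9, a giant scaffold of the Golgi and the centrosome, was at 219.6, 198 and 188 CPM in control and 173, 167 and 192 CPM in knockout. Knockout replicate 3 lay above control replicate 3, so the AKAP9 groups overlapped, and its log2 fold change was -0.18 (SE 0.06). The highest AKAP9 value was in control replicate 1, the library with more mitochondrial RNA. Without that library the log2 fold change was -0.12, and AKAP9 no longer passed the threshold. It also failed the threshold without control replicate 2 (-0.20), knockout replicate 1 (-0.17) or knockout replicate 2 (-0.15).

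The 4 remaining members differed little. AKAP1, which anchors PKA at the outer membrane of mitochondria, was at 112, 111 and 109.7 CPM in control and 119.9, 124 and 116 CPM in knockout. Its groups did not overlap, but the log2 fold change was 0.11 (SE 0.04) and did not pass the threshold. AKAP6, or mAKAP, an anchor of the nuclear envelope in muscle and neurons, was at 4.99 to 5.27 CPM in control and 5.34 to 6.60 CPM in knockout (log2 fold change 0.22, SE 0.09) and did not pass either. Leaving out 1 library brought AKAP1 past the threshold (without knockout replicate 3, 0.13) and AKAP6 (without knockout replicate 1, 0.31). AKAP8, a nuclear anchor that binds chromatin, was at 59.6 to 65.2 CPM in control and 58.0 to 59.8 CPM in knockout, and its small log2 fold change of -0.06 (SE 0.05) turned to 0.02 when libraries were scaled by their totals alone. AKAP11, which also binds protein phosphatase 1 and the kinase GSK3, was at 78.8 to 89.3 CPM in control and 74.5 to 82.2 CPM in knockout (log2 fold change -0.08, SE 0.06), so the groups overlapped for both AKAP8 and AKAP11.

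**Figure D1:**
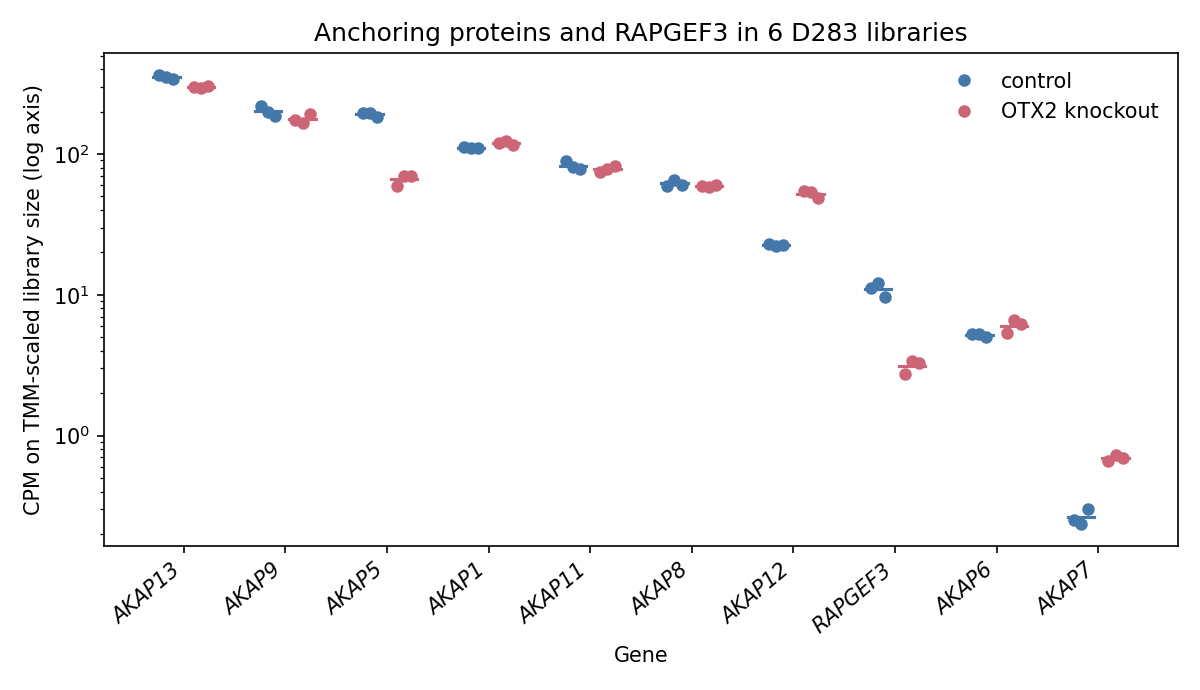
Expression of each member in every library, in CPM on TMM-scaled library sizes (log axis), with control libraries in blue and OTX2 knockout libraries in red, and short lines at the group means. AKAP5 and RAPGEF3 sit lower and AKAP12 and AKAP7 higher in all 3 knockout libraries, while the AKAP8, AKAP9 and AKAP11 points of the groups overlap.

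Counted over the 10 members, 2 were higher and 4 lower at an adjusted p under 0.05 in the test across all genes (edgeR's quasi-likelihood test), and 4 did not pass. The background was 39.7% of the 18420 tested genes in either direction, 21.2% higher and 18.5% lower. For 7 of the 10 members the CPM ranges of control and knockout were apart, as they were for 49.2% of all tested genes. Nothing is read from these counts, since the members were chosen with this comparison known. The median log2 fold change of the members was -0.07, beside 0.01 over all tested genes, and the members ranged from -1.81 to 1.40.

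**Figure D2:**
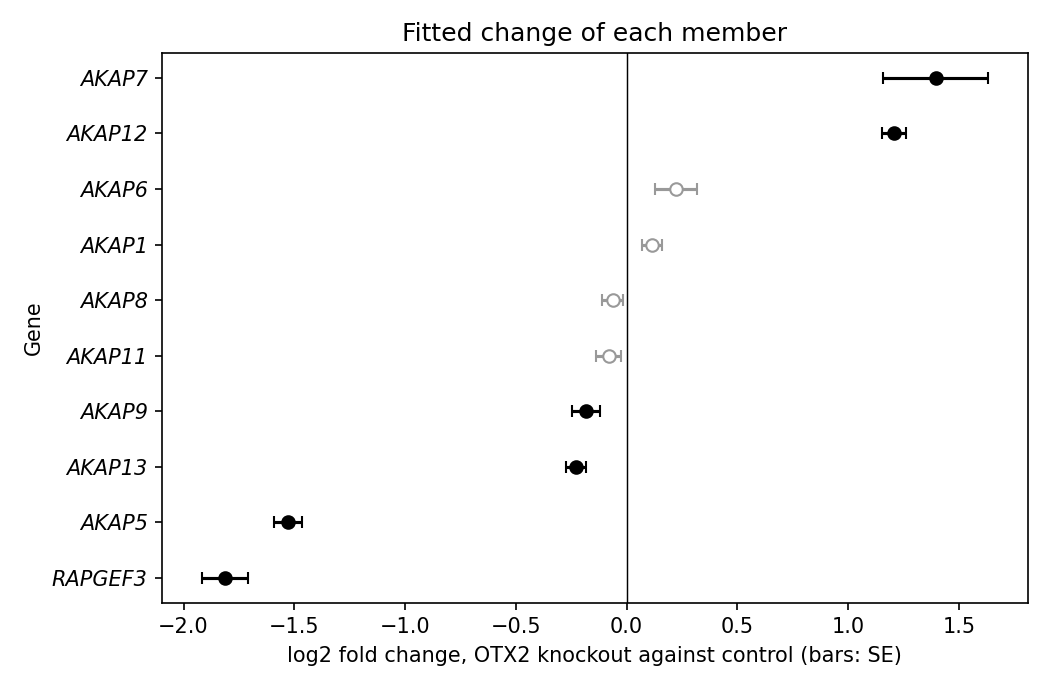
Fitted log2 fold change of each member, OTX2 knockout against control, with bars of 1 SE. Filled black points passed the threshold across all genes and open grey points did not; RAPGEF3 (-1.81) and AKAP5 (-1.53) lie at one end, and AKAP12 (1.21) and AKAP7 (1.40) at the other.

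To compare genes with each other, CPM were divided by the combined exon length of each gene in kilobases. On that scale AKAP5 was the most abundant member in the controls, at 25.6 ± 0.866 CPM per kb (SD, n = 3). It was followed by AKAP1 at 20.5 ± 0.216, AKAP13 at 17.3 ± 0.568, AKAP8 at 14.4 ± 0.706, AKAP9 at 11.1 ± 0.899 and AKAP11 at 8.34 ± 0.571 CPM per kb. AKAP12 was at 2.58 ± 0.0464, RAPGEF3 at 0.909 ± 0.102, AKAP6 at 0.262 ± 0.00770 and AKAP7 at 0.0599 ± 0.00747 CPM per kb. No neighbours in this order overlapped between control libraries.

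In the knockout libraries AKAP1 was the most abundant member at 22.2 ± 0.683 CPM per kb, and AKAP5 had rank 5 at 8.86 ± 0.834 CPM per kb. AKAP5 then overlapped its neighbours in the order, AKAP9 (9.18 to 10.5 CPM per kb) and AKAP11 (7.51 to 8.29 CPM per kb). RAPGEF3, at 0.259 ± 0.0289 CPM per kb, overlapped AKAP6 at 0.305 ± 0.0324. With the longest transcript as the length, AKAP13 came before AKAP1 in control and RAPGEF3 before AKAP6 in knockout, and the ranks of AKAP5 were the same. AKAP12 rose to 5.96 ± 0.370 CPM per kb, still below AKAP11.

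The summed level of the 9 anchoring members went from 100.1 ± 2.97 to 83.7 ± 1.19 CPM per kb. AKAP5 made up 25.5% ± 0.168 of that sum in control and 10.6% ± 0.867 in knockout. AKAP12 went from 2.58% ± 0.0790 to 7.13% ± 0.531 of it, and AKAP1 from 20.5% ± 0.404 to 26.6% ± 1.01. Shares of a sum are tied to each other, and AKAP1 itself went only from 20.5 to 22.2 CPM per kb. Between the members that moved apart, there were 8.51 ± 0.311 AKAP5 counts per AKAP12 count in control and 1.29 ± 0.183 in knockout. These counts were not divided by gene length, and the ratio partly restates the fall for which AKAP5 was chosen.

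**Figure D3:**
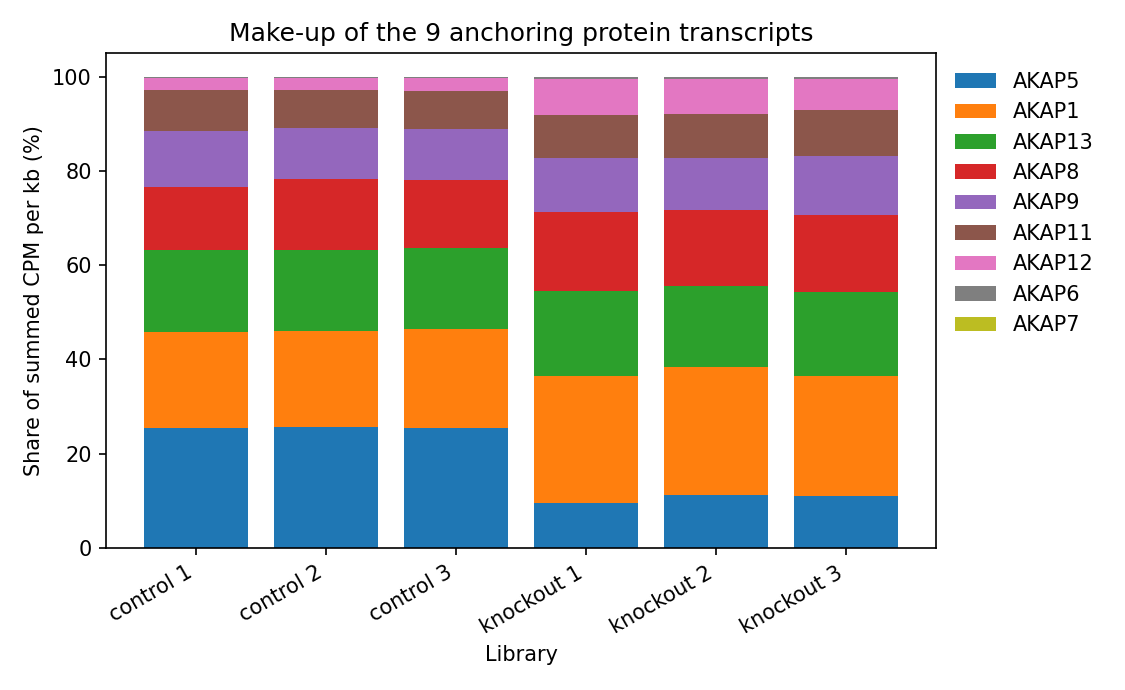
Share of each anchoring protein in the summed CPM per kb of the 9 anchoring members (stacked bars, percent), 1 bar per library. AKAP5, at the bottom, averages 25.5% over control and 10.6% over knockout libraries, and AKAP12 grows from 2.58% to 7.13%.

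The spread between libraries was small for most members. The coefficient of variation in the controls ran from 1.05% for AKAP1 to 12.5% for AKAP7, and in the knockout libraries from 1.65% for AKAP8 to 11.2% for RAPGEF3. AKAP5 varied by 3.39% in control and 9.41% in knockout.

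The genes with the most similar profile over the 6 libraries were found among 12943 tested genes with a mean count of at least 100, by the root mean square difference of centred log2 CPM. For AKAP5 they were COL4A3 (0.0441), a basement membrane collagen, complement C3 (0.0676) and TDRD9 (0.0928). COL4A3 went from 30.5 ± 2.03 to 10.8 ± 0.993 CPM and C3 from 79.1 ± 5.58 to 27.9 ± 1.65 CPM. For RAPGEF3 they were MAEL (0.135), the serine protease gene PRSS56 (0.154) and the nucleoside transporter SLC28A3 (0.155). With 6 libraries in 2 groups, such a likeness mostly reflects a difference of the same size between the groups.

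Of 16 tested genes in the list of other anchoring proteins, 3 rose and 3 fell, 37.5% against the background of 39.7%, with a median log2 fold change of -0.01. SYNM, an intermediate filament protein that binds PKA, rose from 29.2 ± 1.07 to 46.7 ± 4.94 CPM (adjusted p = 1.23e-06, edgeR quasi-likelihood test). MYRIP, a carrier of secretory granules and melanosomes, fell from 23.7 ± 1.89 to 14.9 ± 2.28 CPM (adjusted p = 3.40e-05). WASF1, an actin regulator, rose by a log2 fold change of 0.26 (SE 0.05), and AKAP17A fell by 0.19 on the log2 scale (SE 0.04). The further calls, named after their values were seen, were AKAP4 and AKAP14. AKAP4, an anchor of the sperm tail, fell from 0.777 ± 0.0590 to 0.451 ± 0.0995 CPM. AKAP14, which has exons that overlap those of NKAP, rose from 0.113 ± 0.0448 to 0.296 ± 0.0724 CPM. AKAP14 entered the test through its knockout counts, so the number of risers in this list is partly set by the filter. AKAP8L and AKAP10, also named afterwards, had log2 fold changes of -0.01 and -0.01 at 103 and 72.3 CPM in control. With library totals alone, 5 genes of this list rose.

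Genes for PKA itself were mixed, while those for its inhibitors rose. Of 10 tested genes, 4 rose and 3 fell (median 0.13), 70% called where 39.7% of all tested genes were. The inhibitor peptides block the catalytic subunit: PKIA rose from 14.4 ± 0.909 to 24.2 ± 1.10 CPM (adjusted p = 2.21e-07, edgeR quasi-likelihood test), and PKIB by a log2 fold change of 0.92 to reach 2.28 ± 0.114 CPM (adjusted p = 6.09e-05). PKIG rose from 5.99 ± 0.310 to 7.78 ± 0.181 CPM, and its count is uncertain because its exons overlap ADA. The regulatory subunit PRKAR1B fell from 10.7 ± 0.712 to 7.18 ± 0.452 CPM (adjusted p = 3.12e-05). Among genes named after their values were seen, PRKAR2A, the type II regulatory subunit to which most anchoring proteins bind, fell from 177 ± 4.98 to 161 ± 2.35 CPM (adjusted p = 0.0212). PRKAR1A, the most abundant subunit in CPM, was at 239 ± 5.63 and 236 ± 7.76 CPM and did not pass. Of the catalytic subunits PRKACA rose by 0.23 and PRKACB fell by 0.20 on the log2 scale. Only 1 gene of this list fell without control replicate 2, knockout replicate 1 or knockout replicate 2, or with library totals alone.

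In the Rap branch, 8 of 17 tested genes rose and 3 fell (median 0.04), 64.7% called beside 39.7% of all tested genes. At a threshold of 0.01, which 5184 of the 18420 tested genes passed, 4 genes of this list rose. SIPA1L1, a Rap GTPase-activating protein of the postsynaptic density, rose from 8.88 ± 0.459 to 17.4 ± 0.0609 CPM (adjusted p = 1.48e-08, edgeR quasi-likelihood test). RAPGEF5 fell from 12.7 ± 0.467 to 8.85 ± 0.365 CPM (adjusted p = 1.96e-05) and RAPGEF2 rose from 40.4 ± 0.865 to 51.7 ± 1.41 CPM (adjusted p = 2.54e-05), both exchange factors for Rap. SIPA1L2 fell from 171 ± 10.5 to 135 ± 4.69 CPM. Of the Rap GTPases, all named after their values were seen, RAP2A and RAP2B rose, with log2 fold changes of 0.15 and 0.18. RAP1A, RAP1B and RAP2C did not pass, with log2 fold changes of -0.07, -0.01 and 0.01.

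Of 8 tested adenylyl cyclases, which make cAMP, 6 rose and 0 fell (median 0.37), where 21.2% of all tested genes rose and 18.5% fell. ADCY9 rose from 81.3 ± 1.30 to 116 ± 3.75 CPM (adjusted p = 3.99e-07, edgeR quasi-likelihood test) and ADCY1, a calcium-stimulated neuronal cyclase, from 36.0 ± 2.52 to 42.0 ± 0.714 CPM. ADCY8 and ADCY2 rose at very low levels, from 0.0730 ± 0.0687 to 0.792 ± 0.196 CPM and from 0.0762 ± 0.0499 to 0.355 ± 0.0718 CPM. ADCY10, named after its values were seen, rose from 0.168 ± 0.0451 to 0.317 ± 0.0546 CPM. These low-level genes entered the test through their knockout counts. The number of risers and the median are therefore partly set by the filter. With the stricter filter on low counts, 3 cyclases rose. The cyclases that did not pass, ADCY3 and ADCY7, named after their values were seen, have uncertain counts because their exons overlap those of CENPO and BRD7. Of 11 tested phosphodiesterases, which degrade cAMP, 3 rose and 1 fell (median 0.09). The share called, 36.4%, was near the 39.7% of all tested genes. PDE2A rose from 1.69 ± 0.152 to 12.4 ± 0.987 CPM (log2 fold change 2.87, SE 0.10; adjusted p = 1.82e-11). PDE3A rose from 1.01 ± 0.153 to 3.22 ± 0.154 CPM and PDE4B from 26.8 ± 2.34 to 48.6 ± 5.95 CPM, while PDE1C fell from 9.36 ± 0.465 to 7.28 ± 1.04 CPM. Without control replicate 1, 2 phosphodiesterases fell, and 5 rose with library totals alone or with no filter.

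Of 7 tested G protein alpha subunits that act on adenylyl cyclase, 3 rose and 2 fell (median 0.07), 71.4% called against the background of 39.7%. GNAS, the stimulatory subunit, rose from 840.0 ± 11.4 to 928 ± 32.3 CPM, (log2 fold change 0.14, SE 0.05; adjusted p = 0.0212, edgeR quasi-likelihood test). That call was lost without control replicate 3 (adjusted p = 0.0794) or knockout replicate 2 (0.167). Among the inhibitory subunits GNAI1 fell from 27.3 ± 0.945 to 20.2 ± 0.485 CPM and GNAI2 rose from 29.2 ± 1.79 to 38.3 ± 3.18 CPM. GNAO1 rose from 0.958 ± 0.122 to 1.56 ± 0.193 CPM. Only 1 subunit fell without control replicate 2, control replicate 3, knockout replicate 1 or knockout replicate 2, with library totals alone, or with no filter. Among other cAMP-binding effectors POPDC3 fell from 12.9 ± 0.655 to 10.1 ± 0.514 CPM. BVES (log2 fold change -0.10) and the channel HCN3 (-0.04, turning to 0.04 with library totals alone) did not pass.

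Downstream of PKA, 4 of 8 tested CREB family factors and coactivators rose and 1 fell (median 0.10), 62.5% called against 39.7% of all tested genes. The coactivator CRTC1 rose from 7.43 ± 0.449 to 10.9 ± 0.257 CPM (adjusted p = 2.10e-05, edgeR quasi-likelihood test), CRTC2 by 0.23 and CRTC3 by 0.17 on the log2 scale, and ATF1 fell from 39.9 ± 0.433 to 33.4 ± 1.69 CPM. Without control replicate 2, 2 factors rose and CRTC3 was not among them (adjusted p = 0.0530), and without control replicate 3, 2 fell. Of 13 tested textbook CREB targets 8 rose and 1 fell (median 0.46), where 21.2% of all tested genes rose and 18.5% fell. RGS2 rose from 4.69 ± 0.259 to 13.7 ± 0.465 CPM (adjusted p = 4.81e-10), DUSP1 from 38.4 ± 8.05 to 69.9 ± 12.1 CPM and NR4A2 from 3.16 ± 0.475 to 4.85 ± 0.153 CPM. FOS was at 154, 91.4 and 101 CPM in control and 261, 201 and 178 CPM in knockout, so the groups did not overlap, and control replicate 1 was again the highest control. Many of these targets also answer to other signals. The falling target, PER1, named after its values were seen, did not pass without control replicate 1, knockout replicate 1 or knockout replicate 2, which left 0 falling targets.

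Calcineurin is a partner that AKAP5 is known to hold, and its list also covers RCAN regulators and NFAT factors. Of 11 tested genes of calcineurin and its pathway, 5 rose and 1 fell (median 0.26), 54.5% called against 39.7% of all tested genes. The catalytic subunit PPP3CA rose from 22.6 ± 0.559 to 39.4 ± 1.02 CPM (adjusted p = 7.61e-09, edgeR quasi-likelihood test), and RCAN2, a calcineurin regulator, fell from 28.6 ± 0.871 to 14.5 ± 0.740 CPM (adjusted p = 4.26e-09). The other tested calcineurin subunits, PPP3CB, PPP3CC and PPP3R1, named after their values were seen, did not pass. NFATC4, a transcription factor that calcineurin activates, rose from 145 ± 8.98 to 200.2 ± 15.1 CPM and NFATC1 by 0.26 on the log2 scale. Without control replicate 3 or knockout replicate 1, and with DESeq2, 3 of these genes rose. Of 9 tested genes for other binding partners of AKAP5, 2 rose and 2 fell (median 0.07), and the share called, 44.4%, was near the background of 39.7%. IQGAP1 fell from 208 ± 8.95 to 174 ± 6.70 CPM and the synaptic scaffold DLG1 from 148 ± 3.99 to 130.0 ± 6.07 CPM. The AMPA receptor subunit GRIA1 (0.283 ± 0.0866 to 0.544 ± 0.147 CPM) and TRPV1 (2.45 ± 0.281 to 3.12 ± 0.432 CPM) were the rising partners, and 0 or 1 of the partners rose when any 1 library was left out. DLG1 did not pass without knockout replicate 2 or with library totals alone, where 1 partner fell.

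Over the 11 lists, 116 genes were tested, 47 rose and 18 fell, 56.0% against the background of 39.7%, with a median log2 fold change of 0.11. The genes of the lists were not matched to all genes for expression level or length, so nothing particular to the pathway is read from that share. Some low-level risers, such as AKAP14 and ADCY8, also entered the test through their knockout counts.

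**Figure D4:**
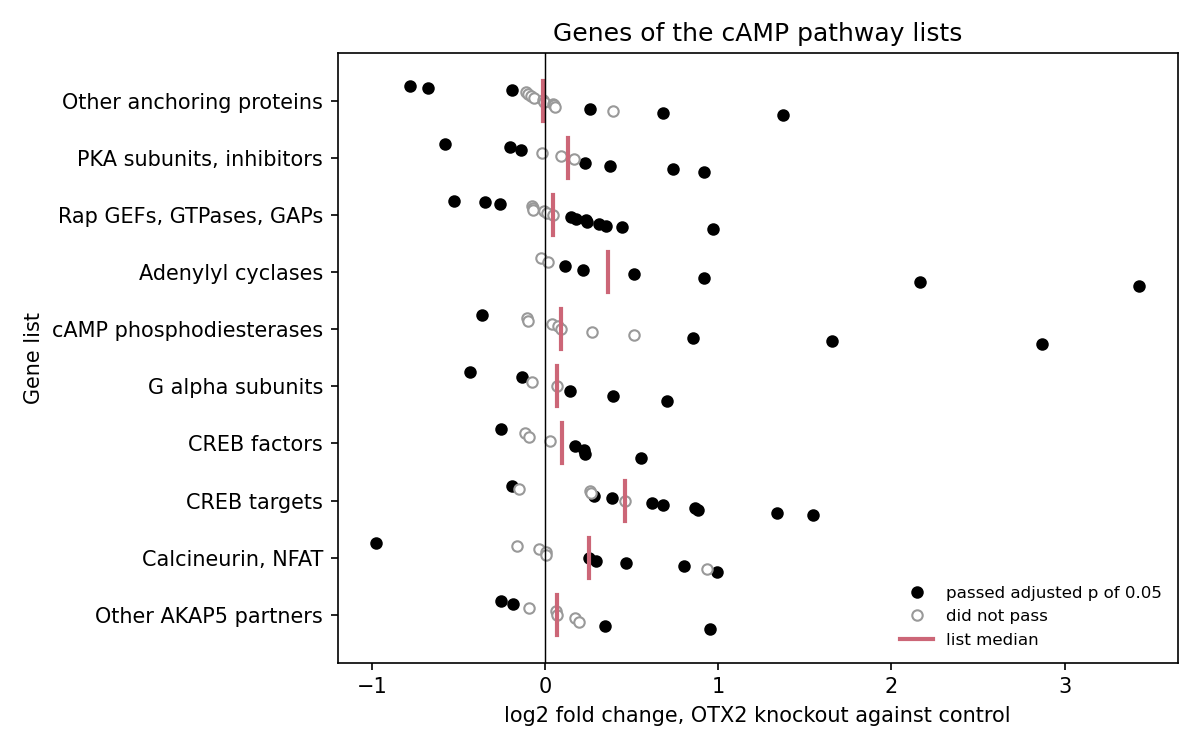
Fitted log2 fold change of every tested gene in 10 of the lists, OTX2 knockout against control, with 1 row per list. Filled points passed the threshold across all genes, open points did not, and red bars are list medians, which run from -0.01 (other anchoring proteins) to 0.46 (CREB targets); the points farthest right are ADCY8 (3.43) and PDE2A (2.87).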

How the data were processed

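The authors deposited unnormalized counts per gene symbol for 6 libraries, 3 per group. STAR and hg38 stand in the submitters' processing notes; which counting program, annotation, strand setting or filter made the counts is not given in these sources. The tests used edgeR 4.0.16 (R 4.3.3): filterByExpr, TMM scaling and the quasi-likelihood F test with all 6 libraries, with p-values adjusted by the Benjamini-Hochberg method over 18420 genes and a threshold of 0.05. The fit had 4 residual degrees of freedom. Replicates are separate infections of the same line, and the p-values reflect the variation among infections only. Limits from counts cover counting error only. Gene models came from GENCODE release 29 on GRCh38, and promoter sequences from RefSeq. A count is called uncertain where exons overlap a gene holding over 10% of its count. Overlapping genes with no count under their symbol could not be judged by this rule, so a count not called uncertain was not always cleared. Such genes cover 25.9% of the combined exons of SYNM, 19.1% of SIPA1L1, 27.5% of TRPV1 and 8.53% of PRKAR1B, among others. Alternatives were other scalings, filters and a threshold of 0.01, DESeq2 1.42.0, limma-voom (limma 3.58.1) and leaving out each library. The scripts were tested on simulated data.

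The members and lists were chosen with earlier results of these data known. The text names the members, OTX2, overlapping genes, the 3 genes most like AKAP5 and RAPGEF3, and per list up to 4 called genes with the smallest adjusted p, filled up with the most expressed; other genes are marked as named after their values were seen. Protein sequences were not used here. Some results for the list of other cAMP-binding effectors are not reported here.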

Additional observations from a re-analysis of the deposited data

How the results depend on the processing

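Of 62 named genes, 52 kept their direction and their side of the threshold under all 14 alternatives that gave a value. Many of the 62 were named for a small adjusted p or for their falls in these same data. Their stability was therefore partly set by that choice. Among the 52 were AKAP5 (log2 fold change -1.58 to -1.45), RAPGEF3 (-1.90 to -1.72), AKAP12 (1.18 to 1.29), AKAP13 (-0.26 to -0.15) and AKAP7 (1.32 to 1.49, with no value under the stricter filter). With library totals alone, 2034 genes were lower and 71.9% of the called genes were higher, against 3404 and 53.4% with TMM, and 4 members were higher instead of 2; AKAP8 (0.0165) and HCN3 (0.0389), not called in either fit, changed sign. AKAP9 did not pass under 8 of the alternatives, and AKAP1 passed under 5. Over the fits that left out 1 library, 5897 to 7514 genes, 5 to 7 members and 51 to 61 of the list genes were called. With the longest transcript in place of the combined exons, AKAP5 made up 23.4% of the anchoring sum in control and 9.68% in knockout, because a different length divides each gene. For genes of a few counts, such as AKAP7 and ADCY8, depth limits the precision. No paired analysis was possible because the labels give the groups no shared replicate numbers.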
